A study of Mus musculus with 8 samples.

Results

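Endothelial genes of the blood-nerve barrier were followed across the sciatic nerves of 4 genotypes of mice. The 10 genes Pecam1, Cdh5, Cldn5, Ocln, Eng, Kdr, Flt1, Tek, Slco1a4 and Abcb1a were taken by symbol from the 23356 genes of the deposited expression table, and all 10 averaged 1 FPKM or more across the 8 libraries, as did 12530 genes in all. FPKM stands for fragments scaled to transcript length and library size, so levels of different genes may be set side by side on it. The genotypes were HA-NRG1 type III/+:Q215X/+, HA-NRG1 type III/+, Q215X/+ and WT, with 2 libraries each. Q215X/+ carries the Q215X mutation on 1 allele, HA-NRG1 type III/+ carries a transgene for neuregulin 1 type III, and the double genotype carries both. All mice were F1 C57BL/6;FVB/N, 30 days of age. The sources used here do not give the promoter of the transgene, the number of animals behind a library, or whether the 2 libraries of a genotype came from separate animals. The p-values therefore cover the spread between libraries only, and this spread may be technical.

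As background, the vessels inside a nerve fascicle are lined by endothelial cells that tight junctions seal together, and with the perineurium they make the blood-nerve barrier. Their membranes hold adhesion proteins, receptors for angiogenic growth factors, and transporters that control which compounds pass between blood and nerve. Neuregulin 1 type III is the axonal signal that sets myelin thickness.

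The columns of the table end in 0 or 1, and these endings are called set 0 and set 1. No label ties them to a replicate number, but they parted the libraries of each genotype along the first principal component, which held 24.9% of the variance. Differences are therefore given within each set as well as fitted over both. Nrg1, below the level tested, was at 0.358 to 0.498 FPKM in the double genotype and at 0.312 to 0.393 FPKM in HA-NRG1 type III/+ nerves, against 0.19 and 0.326 FPKM in Q215X/+ and 0.164 and 0.204 FPKM in WT nerves. By Xist and Y-linked genes, both Q215X/+ libraries read as male, both WT and both HA-NRG1 type III/+:Q215X/+ libraries as female, and HA-NRG1 type III/+ as male in set 0 and female in set 1. Sex and genotype thus cannot be told apart in Q215X/+ against WT or in HA-NRG1 type III/+:Q215X/+ against Q215X/+, other than through the HA-NRG1 type III/+ libraries. Comparisons of HA-NRG1 type III/+ with WT or with the double genotype set unlike sexes side by side in set 0 only.

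Levels in WT nerves spanned more than a decade. The tight junction gene Cldn5 averaged 65.8 ± 19.9 FPKM in WT (SD, n = 2) and lay above 90.9% of the tested genes, while Ocln, the other tight junction gene, averaged 2.43 ± 0.0427 FPKM and lay above 13%. Between them the WT means ran downwards through Pecam1, Cdh5, Eng, Abcb1a, Kdr, Slco1a4, Tek and Flt1. The WT libraries of Pecam1 (25.4 and 28.9 FPKM) and Cdh5 (26.2 and 25.7 FPKM) overlapped, as did those of Eng (18.8 and 16.9 FPKM) and Abcb1a (15.8 and 19.4 FPKM), so the order within these pairs was not beyond their spread. None of the 10 genes was at 0 in any library, and of 24 other pan-endothelial genes 23 also averaged 1 FPKM or more.

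**Figure D1:**
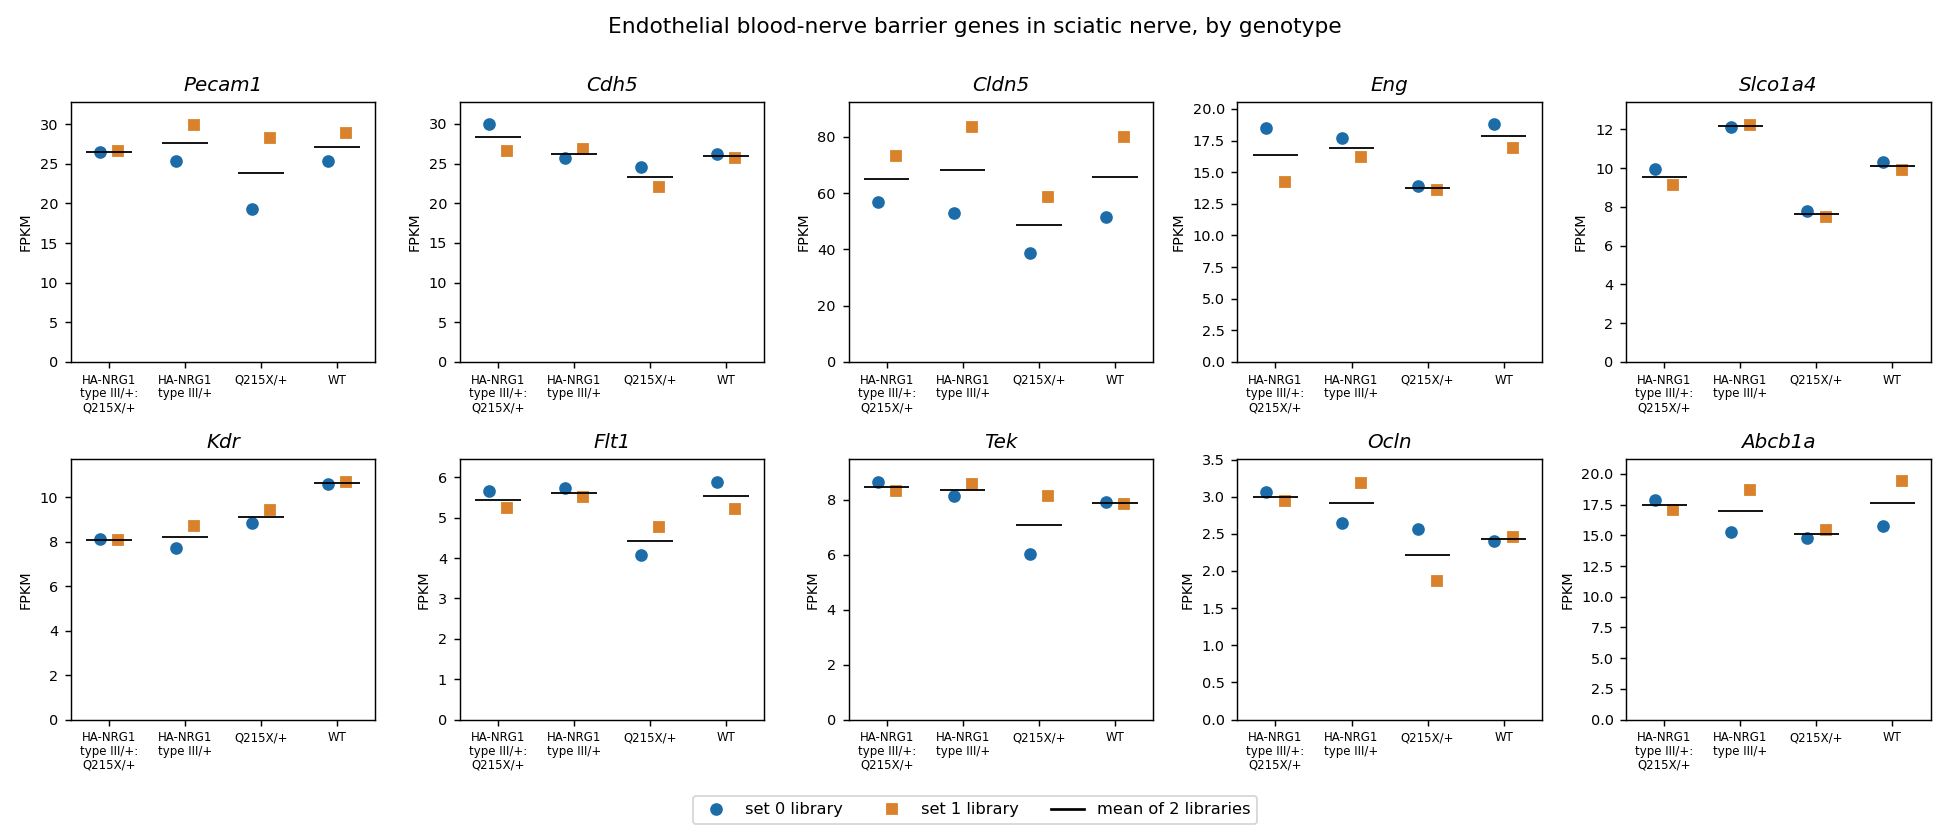
FPKM of the 10 endothelial barrier genes in each library, with genotypes along the horizontal axis, points marked by set and a bar at the mean of 2 libraries. Q215X/+ has the lowest mean for 9 of the genes, Kdr is highest in both WT libraries, and Slco1a4 is highest in both HA-NRG1 type III/+ libraries.

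Among the adhesion and junction genes, Pecam1 (chr11:106654213-106715281, minus strand, GRCm38) encodes a homophilic adhesion protein of endothelial contacts. Its level was 26.5 and 26.6 FPKM in HA-NRG1 type III/+:Q215X/+, 25.4 and 29.9 FPKM in HA-NRG1 type III/+, 19.3 and 28.3 FPKM in Q215X/+, and 25.4 and 28.9 FPKM in WT nerves, each pair in the order set 0, set 1. The set 0 library of Q215X/+ was the lowest of the 8, and the set 1 library of the same genotype lay among those of the other genotypes. Set 1 of Pecam1 was above set 0 in all 4 genotypes. Cdh5 (chr8:104101613-104144504, plus strand) encodes VE-cadherin, the cadherin of endothelial adherens junctions. It stood at 30.0 and 26.6 FPKM in HA-NRG1 type III/+:Q215X/+, 25.7 and 26.8 FPKM in HA-NRG1 type III/+, 24.6 and 22.1 FPKM in Q215X/+ and 26.2 and 25.7 FPKM in WT nerves. Both Q215X/+ libraries were below the 6 others, and the gene annotation places the antisense gene Gm29682 on the other strand of Cdh5.

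Cldn5 (chr16:18776847-18778262, plus strand) encodes claudin-5, the strand-forming claudin of brain and nerve endothelium. It was measured at 56.8 and 73.1 FPKM in HA-NRG1 type III/+:Q215X/+, 53.1 and 83.5 FPKM in HA-NRG1 type III/+, 38.8 and 58.5 FPKM in Q215X/+ and 51.7 and 79.9 FPKM in WT nerves. Set 1 was above set 0 in all 4 genotypes, by 0.36 to 0.64 on the log2 scale, and the sets accounted for 65.4% of its variance against 31.9% for the genotypes. Such shares are not adjusted for the number of groups, which favours genotypes over sets, and were not computed over all genes. Within each set Q215X/+ was the lowest genotype. Ocln (chr13:100496504-100552718, minus strand) encodes occludin, a membrane protein of tight junctions. In bulk nerve its transcripts cannot be assigned to endothelium or to another cell type. Its values were 3.06 and 2.94 FPKM in HA-NRG1 type III/+:Q215X/+, 2.64 and 3.18 FPKM in HA-NRG1 type III/+, 2.57 and 1.87 FPKM in Q215X/+ and 2.4 and 2.46 FPKM in WT nerves. The Q215X/+ libraries lay on both sides of the WT libraries, while all libraries with the transgene were above both WT libraries and both Q215X/+ libraries.

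Among the receptors, Eng (chr2:32646595-32682669, plus strand) encodes endoglin, a co-receptor for BMP and TGF-beta ligands. It was at 18.5 and 14.2 FPKM in HA-NRG1 type III/+:Q215X/+, 17.7 and 16.2 FPKM in HA-NRG1 type III/+, 13.9 and 13.6 FPKM in Q215X/+ and 18.8 and 16.9 FPKM in WT nerves. Both Q215X/+ libraries were below all others, although the set 1 library of HA-NRG1 type III/+:Q215X/+ was close to them. Set 1 was below set 0 in all 4 genotypes. Annotated genes overlap Eng: Fpgs on the opposite strand had 7.98 to 9.75 FPKM, and Mir1954 on the same strand is listed at 680 FPKM in HA-NRG1 type III/+ and 607 FPKM in WT of set 1 and at 0 in the 6 other libraries.

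Kdr (chr5:75932827-75979072, minus strand) encodes VEGFR2, the main signalling receptor for VEGF-A. Its level was 8.11 and 8.08 FPKM in HA-NRG1 type III/+:Q215X/+, 7.71 and 8.71 FPKM in HA-NRG1 type III/+, 8.85 and 9.42 FPKM in Q215X/+ and 10.6 and 10.7 FPKM in WT nerves. Both WT libraries were above the 6 others, Q215X/+ came next, and the genotypes with the transgene overlapped each other. Genotype, with which sex went in part, accounted for 91.4% of the variance of Kdr, unadjusted for the number of groups. Flt1 (chr5:147561604-147726438, minus strand) encodes VEGFR1, which binds VEGF-A and also exists as a soluble decoy form that a gene-level value does not set apart. It stood at 5.66 and 5.23 FPKM in HA-NRG1 type III/+:Q215X/+, 5.74 and 5.5 FPKM in HA-NRG1 type III/+, 4.08 and 4.77 FPKM in Q215X/+ and 5.88 and 5.21 FPKM in WT nerves. Both Q215X/+ libraries were the lowest, and the other genotypes overlapped. Tek (chr4:94739086-94874976, plus strand) encodes TIE2, the angiopoietin receptor. It was at 8.64 and 8.31 FPKM in HA-NRG1 type III/+:Q215X/+, 8.15 and 8.58 FPKM in HA-NRG1 type III/+, 6.01 and 8.14 FPKM in Q215X/+ and 7.92 and 7.86 FPKM in WT nerves. As for Pecam1, the low value of Tek was that of the set 0 library of Q215X/+ alone.

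Among the transporters, Slco1a4 (chr6:141805438-141856284, minus strand) encodes an organic anion transporter of brain and nerve vessels. It was at 9.94 and 9.13 FPKM in HA-NRG1 type III/+:Q215X/+, 12.1 and 12.2 FPKM in HA-NRG1 type III/+, 7.8 and 7.46 FPKM in Q215X/+ and 10.3 and 9.92 FPKM in WT nerves. HA-NRG1 type III/+ was highest and Q215X/+ lowest in both sets, without overlap with any other genotype, while the double genotype and WT overlapped. Genotype, with which sex went in part, accounted for 97.7% of the variance of Slco1a4, unadjusted for the number of groups. Abcb1a (chr5:8567091-8748575, plus strand) encodes a P-glycoprotein efflux pump. Its values were 17.9 and 17.1 FPKM in HA-NRG1 type III/+:Q215X/+, 15.3 and 18.7 FPKM in HA-NRG1 type III/+, 14.8 and 15.4 FPKM in Q215X/+ and 15.8 and 19.4 FPKM in WT nerves. The Q215X/+ libraries were below both WT libraries and both libraries of the double genotype, and Q215X/+ in set 1 was slightly above HA-NRG1 type III/+ in set 0. Slco1a4 and Abcb1a have close paralogs, and the sources used here do not say how shared reads were divided between copies.

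Promoter sequences are shown for 4 genes whose levels differed in pattern: Cldn5, Eng and Slco1a4, lower in Q215X/+ than in WT in both sets, and Kdr, lower than in WT in every other genotype. They are the 250 bases before a transcript start of the RefSeq table, 5′ to 3′ on the gene's strand, from RefSeq on GRCm38.p6, at chr16:18776597-18776846 (+ strand), chr2:32646345-32646594 (+ strand), chr6:141856221-141856470 (- strand) and chr5:75978456-75978705 (- strand). For Slco1a4 and Kdr this start lies inside the gene bounds given above, so the Kdr window falls wholly and the Slco1a4 window partly within them. Capitals mark GGAAG, a core that ETS factors of endothelial cells such as ERG and FLI1 can bind, or its reverse complement CTTCC.
Cldn5: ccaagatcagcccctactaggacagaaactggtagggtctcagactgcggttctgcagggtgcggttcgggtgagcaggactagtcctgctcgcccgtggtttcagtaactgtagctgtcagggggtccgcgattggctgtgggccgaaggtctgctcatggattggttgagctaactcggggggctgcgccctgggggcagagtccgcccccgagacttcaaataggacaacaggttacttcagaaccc
Eng: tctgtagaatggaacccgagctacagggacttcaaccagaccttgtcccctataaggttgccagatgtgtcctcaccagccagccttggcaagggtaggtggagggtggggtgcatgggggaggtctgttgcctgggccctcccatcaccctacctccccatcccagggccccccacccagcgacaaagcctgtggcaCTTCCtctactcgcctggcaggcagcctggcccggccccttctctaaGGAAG
Slco1a4: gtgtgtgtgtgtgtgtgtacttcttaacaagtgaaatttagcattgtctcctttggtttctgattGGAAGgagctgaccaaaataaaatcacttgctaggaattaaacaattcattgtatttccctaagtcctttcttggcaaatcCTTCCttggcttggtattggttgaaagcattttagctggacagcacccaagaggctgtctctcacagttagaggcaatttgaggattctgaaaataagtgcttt
Kdr: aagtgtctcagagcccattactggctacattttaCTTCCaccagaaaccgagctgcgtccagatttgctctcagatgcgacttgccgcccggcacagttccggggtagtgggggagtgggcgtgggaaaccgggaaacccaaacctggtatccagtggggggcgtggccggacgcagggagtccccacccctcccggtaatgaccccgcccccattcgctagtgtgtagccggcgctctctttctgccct
Windows were found for 8 of the 10 genes, not for Pecam1 and Cdh5. With 50 bases after the start included, GGAAG on either strand was in 6 of their 9 windows (Ocln has 2 starts), against 71.4% of all 32851 windows of 300 bases. Cldn5 and Tek had none, Flt1 had 3, and Eng, Slco1a4 and Abcb1a had 2 each. The genes lower in Q215X/+ include windows with and without the core, and a match in this window is only a match of letters.

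In Q215X/+ nerves the endothelial genes sat below WT, but no single gene passed the test. All 10 fitted differences were below 0, with a median of −0.20 on the log2(FPKM + 1) scale against −0.0055 for all tested genes, of which 52.3% were below 0. The largest differences were those of Cldn5 (−0.42, SE 0.32), Slco1a4 (−0.37, SE 0.076) and Eng (−0.35, SE 0.13), and the smallest that of Ocln (−0.10, SE 0.13). Between them stood Flt1 at −0.27, Pecam1, Kdr and Abcb1a at −0.20, and Tek and Cdh5 at −0.15. Slco1a4 in Q215X/+ was 0.756 of the WT level in set 0 and 0.751 in set 1, and Cldn5 was 0.751 and 0.733 of it. In bulk tissue, fewer endothelial cells and less RNA per endothelial cell cannot be told apart.

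Of the 10 genes, 8 were lower in Q215X/+ in both sets and 0 were higher in both, against 26.7% and 23.4% of all tested genes. Tek was higher in set 1, by 0.044, and Ocln in set 0, by 0.068. Limma's moderated test on log2(FPKM + 1), with Benjamini-Hochberg adjustment over the 12530 genes, called 0 of the 10 (adjusted p = 1 for each) and 1 gene in all, 0.00798% of those tested. With the sets as a replicate block the counts were the same, 0 of the 10 and 0.00798%, and the smallest adjusted p was that of Slco1a4 (0.263). At an unadjusted p under 0.05 there were 4 of the 10 against 2.04% of all genes, and 5 of the 10 against 7.41% with the block.

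The direction held in each set for most genes, but not for every gene once a single library was left out or a term for sex was added. The median was −0.36 in set 0, where 9 of the 10 were below 0, and −0.24 in set 1, where 9 were. Without the set 0 library of Q215X/+, Pecam1 stood at 0.063 and Tek at 0.039, and without the set 1 library, Ocln stood at 0.055 and the median at −0.33, against −0.18 without the set 0 library. A term for sex rests on the difference between the HA-NRG1 type III/+ libraries, of which set 0 read as male and set 1 as female. Without the block this term also takes in the difference between the sets, and sex and set cannot be told apart in it. With this term the median was −0.065 and Pecam1, Cldn5, Ocln and Abcb1a were above 0. With that term and the block together the median was −0.20.

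**Figure D2:**
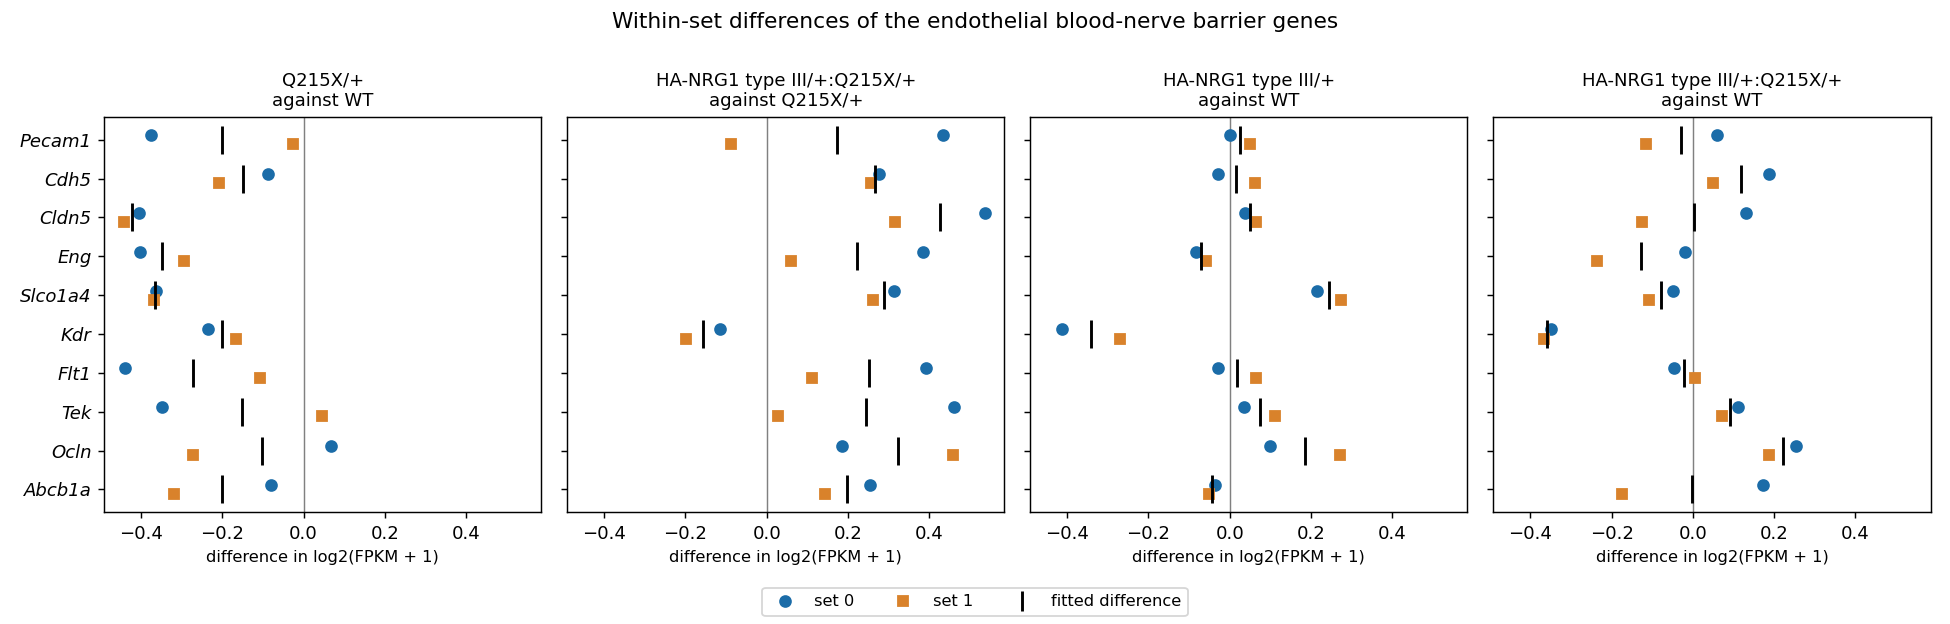
Differences in log2(FPKM + 1) of the 10 genes within set 0 and set 1 and as fitted, for 4 pairs of genotypes. In Q215X/+ against WT 8 genes lie left of 0 in both sets, and in HA-NRG1 type III/+:Q215X/+ against Q215X/+ 8 lie right of it, with Kdr to the left.

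With the transgene on the mutant background, 9 of the 10 fitted differences against Q215X/+ were above 0, and Kdr was the one below. The median of HA-NRG1 type III/+:Q215X/+ minus Q215X/+ was 0.25, against −0.0085 for all tested genes, of which 53.2% were below 0. Cldn5 led with 0.43 (SE 0.32), followed by Ocln at 0.32 (SE 0.13), Slco1a4 at 0.29 (SE 0.076) and Cdh5 at 0.27 (SE 0.094). Flt1 stood at 0.25, Tek at 0.24, Eng at 0.22, Abcb1a at 0.20 and Pecam1 at 0.17, and Kdr at −0.16 (SE 0.082). Both comparisons use the same Q215X/+ libraries, so low values there enter the 2 results with opposite signs.

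Of the 10, 8 were higher in both sets, against 28.5% of all genes, and 1, Kdr, was lower in both, against 33.2%. Pecam1 was higher by 0.44 in set 0 and lower by 0.088 in set 1. Limma called 0 of the 10 (adjusted p = 0.392 for Slco1a4, the smallest), with 0.0399% of all genes called, and 0 of the 10 with the replicate block, with 1.72% called. With the block, Cldn5 had an adjusted p of 0.0667 and Slco1a4 of 0.0754. At an unadjusted p under 0.05 there were 4 of the 10 (6.58% of all genes), and 7 of the 10 with the block (15.7%). The median was 0.35 in set 0 and 0.13 in set 1. With the term for sex Pecam1 (−0.054), Cldn5 (−0.22) and Abcb1a (−0.071) were below 0, and without the set 0 library of Q215X/+ Pecam1 was at −0.091.

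On the wild-type background, 8 of the 10 genes had fitted differences of HA-NRG1 type III/+ minus WT between −0.070 (Eng) and 0.18 (Ocln), while Kdr lay below and Slco1a4 above that range. Kdr in HA-NRG1 type III/+ was 0.727 and 0.813 of its WT level, a difference of −0.34 (SE 0.082), and Slco1a4 was 1.18 and 1.23 times its WT level, a difference of 0.24 (SE 0.076). Neither passed limma's test: the adjusted p was 0.319 for Kdr and 0.477 for Slco1a4, and 0.0575 and 0.101 with the replicate block. The median of the 10 was 0.022, against −0.0077 for all genes, with 5 genes higher in both sets (28.7% of all genes) and 3 lower in both (33.3%). Limma called 0 of the 10 without the block (0.0638% of all genes) and 0 with it (2.11%). At an unadjusted p under 0.05, 2 of the 10 were counted in both fits, against 6.9% of all genes without the block and 17.5% with it. In HA-NRG1 type III/+, where set 0 read as male and set 1 as female, Kdr was lower and Slco1a4 higher than in WT in both sets.

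In nerves with both the mutation and the transgene, Kdr lay below its WT level, and the fitted differences of the 9 others ran from −0.13 (Eng) to 0.22 (Ocln). In HA-NRG1 type III/+:Q215X/+ against WT, where all libraries read as female, Kdr was 0.765 of the WT level in set 0 and 0.755 in set 1 (−0.36, SE 0.082). Its adjusted p from limma was 0.293, and 0.0492 with the replicate block, the one call among the 10 genes in any comparison of these 2 fits. That call was kept in 0 of the 8 fits with the block that left out 1 library each, all chosen after seeing the data (adjusted p = 0.0641 to 0.382), and it was lost with a term for sex beside the block (adjusted p = 0.0812). As all libraries of this comparison read as female, the sex term cannot change the fitted difference of Kdr, only its error. That fit is therefore no test of sex here. The median of the 10 was −0.011, against −0.013 for all genes, with 3 higher in both sets (28.4% of all genes) and 3 lower in both (35%). Ocln, at 1.27 and 1.2 times its WT level, Tek and Cdh5 were the 3 higher in both sets, and Kdr, Eng and Slco1a4 the 3 lower. Limma called 0.112% of all genes without the block and 2.39% with it. At an unadjusted p under 0.05 Kdr alone was counted in both fits, against 7.29% of all genes, and 17.9% with the block.

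For the mutation on the transgenic background, Slco1a4 had the largest difference of the 10. In HA-NRG1 type III/+:Q215X/+ against HA-NRG1 type III/+ it was 0.82 of the HA-NRG1 type III/+ level in set 0 and 0.748 in set 1, a difference of −0.32 (SE 0.076), with a limma adjusted p of 1, and 0.597 with the block. The median of the 10 was −0.028, against −0.0051 for all genes. Slco1a4 and Flt1 were lower in both sets, 2 of the 10 against 29% of all genes, and the 8 others were higher in set 0 and lower in set 1. This comparison set a female against a male library in set 0 and a female against a female library in set 1. Sex and set therefore cannot be told apart in that split. Limma called 0 genes of the 12530 with or without the block, 0% of those tested. At an unadjusted p under 0.05 it counted 1 of the 10 (1.28% of all genes), and 1 with the block (4.53%).

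The difference between the effects of the transgene on the 2 backgrounds was tested directly. The interaction, the transgene effect on the mutant background minus that on the wild-type background, was above 0 for all 10 genes with a median of 0.21, against 0.00076 for all tested genes, of which 49.8% were below 0. Its median was 0.36 in set 0 and 0.094 in set 1, and it was above 0 in both sets for 7, against 26.9% of all genes. The interaction uses the same Q215X/+ libraries as the earlier comparisons, so low values there raise it. Sex also enters it. On the mutant background female libraries were set against male ones, and on the wild-type background the sexes differed in set 0. Sex and the interaction therefore cannot be told apart, other than through the HA-NRG1 type III/+ libraries. Eng and Abcb1a went in opposite directions in both sets: HA-NRG1 type III/+:Q215X/+ minus Q215X/+ was 0.38 and 0.060 for Eng, and HA-NRG1 type III/+ minus WT was −0.082 and −0.057. For Abcb1a they were 0.25 and 0.14 on the mutant background, and −0.036 and −0.050 on the wild-type background. No interaction of the 10 was called by limma (adjusted p = 1 for each, and 0.965 to 0.983 with the block), with 0.00798% of all genes called in either fit. At an unadjusted p under 0.05 there were 0 of the 10 (1.11% of all genes), and 3 with the block (4.78%), namely Cldn5, Cdh5 and Eng. With the term for sex, which without the block also takes in the difference between the sets, the median was −0.011. The transgene effects on the 2 backgrounds were not shown to differ.

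**Figure D3:**
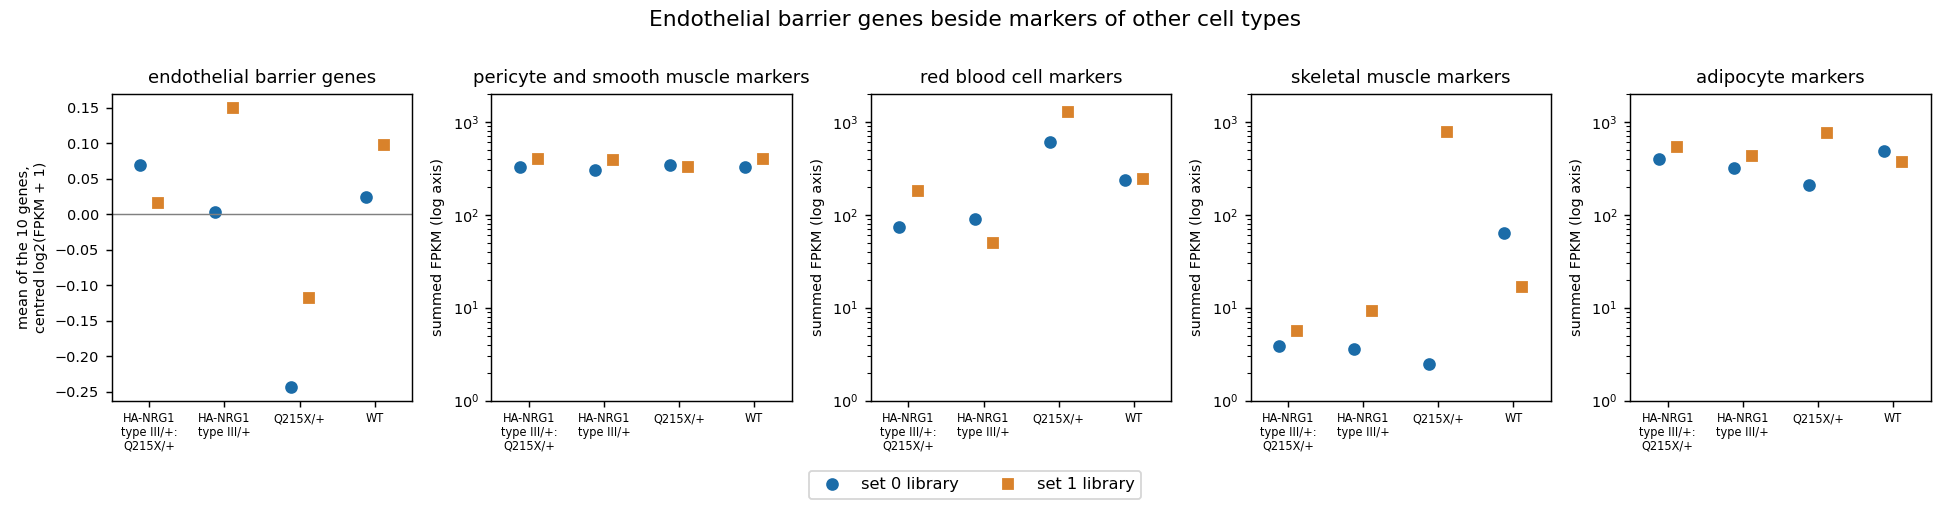
Left, the mean over the 10 genes of log2(FPKM + 1) centred on each gene's mean, per library; other panels, summed FPKM of marker lists on a log axis. The Q215X/+ libraries have the 2 lowest endothelial means, −0.24 and −0.12, and the 2 highest red blood cell sums, and its set 1 library has a skeletal muscle sum of 770 FPKM.

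Markers of other cells also differed between the libraries. Averaged over the 10 genes, the centred level was 0.070 and 0.016 in HA-NRG1 type III/+:Q215X/+, 0.0038 and 0.15 in HA-NRG1 type III/+, −0.24 and −0.12 in Q215X/+ and 0.024 and 0.098 in WT. The 5 red blood cell markers summed to 73.3 and 178 FPKM in HA-NRG1 type III/+:Q215X/+, 89.7 and 49.1 FPKM in HA-NRG1 type III/+, 599 and 1280 FPKM in Q215X/+ and 239 and 244 FPKM in WT nerves, and 4 of them were higher in Q215X/+ than in WT in both sets. The 6 skeletal muscle markers summed to 2.48 FPKM in set 0 and 770 FPKM in set 1 of Q215X/+, against 63.1 and 16.7 FPKM in WT. Adipocyte markers (5 genes) summed to 209 and 756 FPKM in Q215X/+ and to 484 and 369 FPKM in WT. Pericyte and smooth muscle markers, 11 genes of the cells that wrap vessels, summed to 342 and 329 FPKM in Q215X/+ and to 324 and 393 FPKM in WT. Much of these sums was Tagln, at 207 and 176 FPKM in Q215X/+ and 157 and 242 FPKM in WT. In Q215X/+ against WT 9 of the 10 tested were below 0 (52.3% of all genes), with a median of −0.15. Of these 10, 4 were lower in both sets (26.7% of all genes) and 0 higher in both (23.4%). Of the 6 lymphatic endothelial markers 4 were tested, and the list summed to 34.9 to 44.4 FPKM over all libraries. Most of that sum was Pdpn (20.2 to 29.2 FPKM) and Lyve1 (8.67 to 20.7 FPKM). The defining chemokine gene of the list, Ccl21a, was at or near 0 throughout (0 to 0.0279 FPKM), and Prox1 was at 0.0944 to 0.355 FPKM.

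Markers of the myelinating, perineurial and immune cells of the nerve had other patterns. The 4 Schwann cell markers Mbp, Prx, Mag and Sox10 were all lower in both sets in HA-NRG1 type III/+:Q215X/+ than in Q215X/+ (median −0.14), the comparison in which most of the 10 endothelial genes were higher, and 3 were lower in both sets in Q215X/+ than in WT (median −0.048). The 5 macrophage markers summed to 125 and 113 FPKM in HA-NRG1 type III/+:Q215X/+, 106 and 118 FPKM in HA-NRG1 type III/+, 113 and 91.3 FPKM in Q215X/+ and 103 and 79.3 FPKM in WT nerves. Of these, 4 were higher in both sets in Q215X/+ than in WT (median 0.16), and 3 in HA-NRG1 type III/+:Q215X/+ than in Q215X/+ (median 0.13). The 5 perineurial markers had medians of −0.098 in Q215X/+ against WT and 0.068 in HA-NRG1 type III/+:Q215X/+ against Q215X/+, with 2 lower and 3 higher in both sets, and 1 of them, Slc2a1, is also a barrier transporter. Of all tested genes, 26.7% were lower and 23.4% higher in both sets in Q215X/+ against WT. In HA-NRG1 type III/+:Q215X/+ against Q215X/+ these shares were 33.2% and 28.5%.

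Without the block no gene of the marker lists was called, and with it 5 were, named here after their values were seen. Of all tested genes, the block fit called 1.72% in HA-NRG1 type III/+:Q215X/+ against Q215X/+. It called 2.11% in HA-NRG1 type III/+ against WT and 2.39% in HA-NRG1 type III/+:Q215X/+ against WT. In HA-NRG1 type III/+:Q215X/+ against Q215X/+ the red blood cell genes Alas2 (−3.43, adjusted p = 0.0264 with the block) and Hbb-b2 (−2.22, adjusted p = 0.03) and the hyaluronan receptor gene Lyve1 of the lymphatic list (−0.71, adjusted p = 0.0469) fell. Hbb-b2 has close copies whose reads may be divided between them. The fractalkine receptor gene Cx3cr1 of the macrophage list rose there (0.91, adjusted p = 0.0276), in HA-NRG1 type III/+ against WT (0.64, adjusted p = 0.0435) and in HA-NRG1 type III/+:Q215X/+ against WT (0.89, adjusted p = 0.0187). Mmrn1 of the lymphatic list rose in HA-NRG1 type III/+:Q215X/+ against WT (0.89, adjusted p = 0.0404), so the lymphatic sum covers differences in both directions. Mmrn1 was near the level filter, at 1.04 and 2.39 FPKM in HA-NRG1 type III/+:Q215X/+ and 0.0883 and 0.849 FPKM in WT. It passed that filter only through its higher libraries, those of the double genotype among them, so its call is weak. A term for sex beside the block kept Mmrn1 (adjusted p = 0.0481) and Cx3cr1 (0.0186) against WT in the double genotype and ended the other calls (adjusted p = 0.0864 to 0.777). Against WT in the double genotype, where all libraries read as female, that term cannot change a difference, only its error. Of the fits with the block that left out 1 library each, Cx3cr1 was still called in 2 to 4 of 8, Alas2 in 2, Lyve1 and Hbb-b2 in 1 and Mmrn1 in 3 of 6. Genes of short RNA took 4.34% and 6.47% of total FPKM in HA-NRG1 type III/+:Q215X/+, 4.8% and 10.4% in HA-NRG1 type III/+, 1.83% and 5.96% in Q215X/+ and 3.92% and 5.51% in WT. The lowest share was in the library with the lowest endothelial mean and the highest in the library with the highest, but the other libraries did not keep that order. Set 1 of Q215X/+, with the next lowest mean (−0.12), had a larger share than both WT libraries. The part of the other markers and of the short RNA share in the endothelial result was not tested.

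Other endothelial and barrier genes, in lists that overlap none of the 10, were set beside them. Of 23 tested pan-endothelial genes, 19 were below 0 in Q215X/+ against WT (52.3% of all genes), with a median of −0.18. Of these 23, 13 were lower in both sets (26.7% of all genes) and 0 higher in both (23.4%). In HA-NRG1 type III/+:Q215X/+ against Q215X/+ 3 were below 0 (53.2% of all genes), with a median of 0.14. There 10 were higher in both sets (28.5% of all genes) and 3 lower in both (33.2%). Robo4, a guidance receptor of endothelium, stood at −0.22 and Rasip1, a vessel lumen gene, at −0.26 in the first comparison. In the second, the surface sialomucin gene Cd34 stood at 0.36 and the endothelial nitric oxide synthase gene Nos3 at 0.27. None of these 23 genes was called in any comparison, with or without the block.

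**Figure D4:**
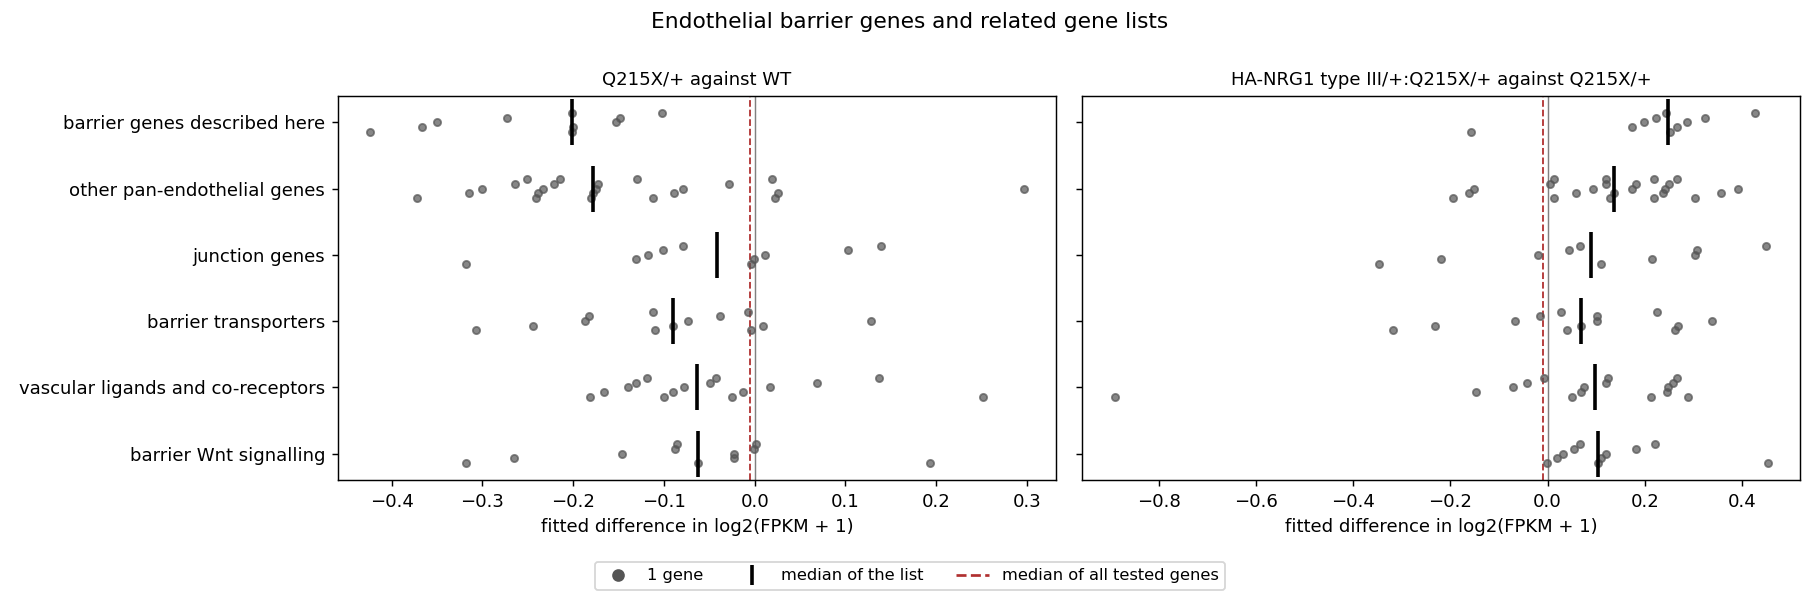
Fitted differences in log2(FPKM + 1) for the 10 barrier genes and 5 related lists, 1 point a gene, with the median of each list and a dashed line at the median of all tested genes. The 10 genes have medians of −0.20 in Q215X/+ against WT and 0.25 in HA-NRG1 type III/+:Q215X/+ against Q215X/+, and the pan-endothelial list −0.18 and 0.14.

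The lists of barrier parts other than pan-endothelial genes lay nearer to 0. In Q215X/+ against WT the medians were −0.042 for 10 junction genes (7 below 0), −0.090 for 13 barrier transporters (11 below 0), −0.063 for 16 vascular ligands and co-receptors (12 below 0) and −0.062 for 11 genes of barrier Wnt signalling (9 below 0). Their smallest p-values belonged to the junction genes Lsr (−0.32) and Jam2 (−0.13), the lipid and glucose transporter genes Mfsd2a (−0.31) and Slc2a1 (−0.24), the co-receptor gene Nrp2 (−0.18), the ligand gene Figf (−0.17), and the Wnt genes Apcdd1 (−0.27) and Lef1 (−0.32). In HA-NRG1 type III/+:Q215X/+ against Q215X/+ the medians were 0.088, 0.068, 0.098 and 0.10 in the same order, with 3, 4, 5 and 1 genes below 0. Of all tested genes, 52.3% were below 0 in Q215X/+ against WT and 53.2% in HA-NRG1 type III/+:Q215X/+ against Q215X/+. There the smallest p-values were those of Jam2 (0.45) and the claudin gene Cldn12 (−0.35), the transporter genes Slco2b1 (0.34) and Mfsd2a (−0.32), the ligand genes Angpt2 (−0.89) and Vegfc (0.27), and Ndp (0.45) and Apcdd1 (0.18). No gene of these lists was called without the block.

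With the replicate block 3 of the tested genes of these 4 lists passed limma's test in at least 1 of the 6 comparisons. In bulk nerve the cells that held their transcripts are not known, so these calls are not tied to endothelium. There were 3 calls in HA-NRG1 type III/+:Q215X/+ against WT, where 2.39% of all genes were called, 1 in HA-NRG1 type III/+ against WT (2.11%) and 1 in HA-NRG1 type III/+:Q215X/+ against Q215X/+ (1.72%). Jam2, a junctional adhesion molecule, was at 17.2 and 15.8 FPKM in HA-NRG1 type III/+:Q215X/+, 19.0 and 18.1 FPKM in HA-NRG1 type III/+, 12.3 and 11.4 FPKM in Q215X/+ and 13.2 and 12.9 FPKM in WT nerves. All 4 libraries with the transgene were above the 4 without it. Jam2 rose in HA-NRG1 type III/+ against WT (0.48, adjusted p = 0.0201 with the block, 0.197 without), in HA-NRG1 type III/+:Q215X/+ against Q215X/+ (0.45, adjusted p = 0.0276 with the block, 0.206 without) and in HA-NRG1 type III/+:Q215X/+ against WT (0.32, adjusted p = 0.0418 with the block, 0.346 without). Mfsd2a, which moves lysophospholipids across the endothelium of the brain, was at 46.2 and 42.3 FPKM in HA-NRG1 type III/+:Q215X/+, 58.4 and 50.4 FPKM in HA-NRG1 type III/+, 55.9 and 54.9 FPKM in Q215X/+ and 73.3 and 64.4 FPKM in WT nerves. It fell in HA-NRG1 type III/+:Q215X/+ against WT (−0.62, SE 0.11 without the block, adjusted p = 0.0132 with the block, 0.161 without). The double genotype was lowest and WT highest in both sets. Ndp, the gene of the Wnt-receptor ligand norrin, was at 20.0 and 22.1 FPKM in HA-NRG1 type III/+:Q215X/+, 20.5 and 19.6 FPKM in HA-NRG1 type III/+, 13 and 17.5 FPKM in Q215X/+ and 12 and 14.3 FPKM in WT nerves. It rose in HA-NRG1 type III/+:Q215X/+ against WT (0.65, SE 0.15 without the block, adjusted p = 0.042 with the block, 0.304 without). In the 8 fits with the block that left out 1 library each, Mfsd2a and Ndp were still called in 4, those without a library of Q215X/+ or HA-NRG1 type III/+, and lost without any one WT or HA-NRG1 type III/+:Q215X/+ library. Jam2 was still called against WT in HA-NRG1 type III/+ in 2 of the 8, those without a Q215X/+ library, and in 0 of the 8 in its other 2 comparisons. A term for sex beside the block kept Mfsd2a (adjusted p = 0.0367) and ended the calls of Ndp (adjusted p = 0.0517) and Jam2 (0.0883 to 0.682). In HA-NRG1 type III/+:Q215X/+ against WT, where all libraries read as female, that term could change only the error of a difference.

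**Figure D5:**
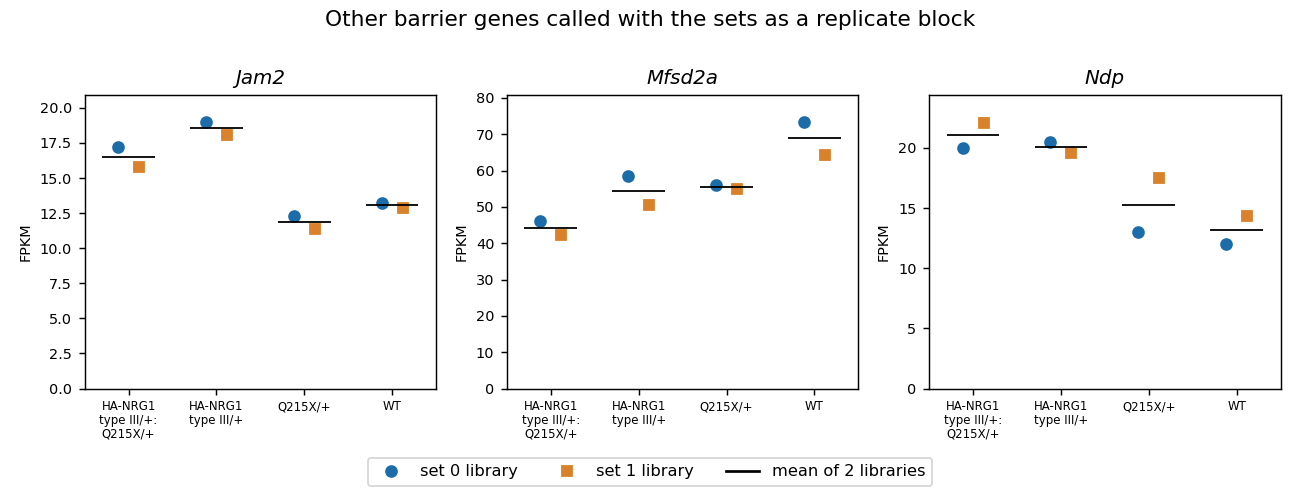
FPKM of Jam2, Mfsd2a and Ndp in each library by genotype, with points marked by set and a bar at the mean of 2 libraries. Jam2 and Ndp are higher in all 4 libraries with the transgene than in the 4 without it, and Mfsd2a is highest in WT and lowest in HA-NRG1 type III/+:Q215X/+ within each set.

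The 10 genes varied together to different degrees over the 8 libraries. As a description, with libraries that share set and genotype, the Pearson r of each gene with the mean of the 9 others was highest for Abcb1a (0.784), Flt1 (0.776) and Tek (0.757), was 0.42 for Ocln, and was −0.081 for Kdr. In set 0 Q215X/+ was the lowest of the 4 genotypes for 8 of the 10 genes, and in set 1 for 7. The share of all tested genes with this order was not computed. These counts restate the low Q215X/+ values given above and add no support to them. Of the tested genes outside the 10, those most like their mean profile were Aldh16a1 (r = 0.979), Ubtd1 (0.951), Shisa5 (0.948), Tmem98 (0.938) and the endothelial gene Robo4 (0.931). Aldh16a1 spanned only 4.44 to 5.17 FPKM over the 8 libraries, and Robo4 5.19 to 7.02 FPKM.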

How the data were processed

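Per the labels, sciatic nerve RNA was poly A selected and made into Illumina TruSeq libraries. The authors deposited 1 FPKM value per gene and library for 23356 genes. TopHat2 2.0.9, Cufflinks 2.2.0 and mm10 (GRCm38) are listed in the submitters' processing notes, but the sources used here do not give their roles, the annotation, strand handling or read counts. Depth is therefore unknown. Steps between low values put it at 0.727 to 1.09 of that of the set 0 library of WT. Total FPKM was 443733 to 530901 per library. The columns for the transgene carry an abbreviated name, taken as HA-NRG1 type III/+ because no other genotype remained.

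Values were analysed as log2(FPKM + 1), which understates differences of low genes, in R 4.3.3 with limma 3.58.1. A model of 4 genotype means over 8 libraries (4 residual degrees of freedom, trend on the mean) was fitted to the 12530 genes averaging 1 FPKM or more. It was checked on simulated data without sets and with larger changes than those of the 10 genes. The check does not show how often differences as small as theirs would be called. A call is a Benjamini-Hochberg adjusted p under 0.05. The set 1 minus set 0 differences correlated at 0.118 to 0.304 across genes in all 6 pairs of genotypes, so the data, though no label, pair the sets. A second fit, with 3 residual degrees of freedom, added the set as a replicate block. The 10 genes and the gene lists were chosen with earlier results of these data known. Named genes of a list are those called, with or without the block, or else the 2 with the smallest p, here in Q215X/+ against WT and in HA-NRG1 type III/+:Q215X/+ against Q215X/+. Alternatives were another pseudocount, no filter, median-of-ratios scaling, the block, a sex term and leaving out each library. The mutated gene and 1 marker gene are not reported here.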

Additional observations from a re-analysis of the deposited data

How the results depend on the processing

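Limits come first. FPKM gives no counting error, and sex followed genotype in part. Median-of-ratios scaling moved the median of all genes by less than 0.01 in log2, and with it or with a pseudocount of 0.1 no call among the 10 endothelial genes changed, nor the sign of any single-gene difference that was recomputed. Not every difference of the 10 genes was recomputed singly. The number of the 10 genes called was 0 under all alternatives in all comparisons, other than 1 (Kdr) with the replicate block in HA-NRG1 type III/+:Q215X/+ against WT, and 0 there with the sex term and the block or in any fit with the block that left out 1 library. Without the block, the sex term also takes in the difference between the sets within HA-NRG1 type III/+. The cause of the shifts below was not tested.

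For Q215X/+ against WT, 1 gene was called in all, 2 with no filter, 8 with the sex term, 9 with that term and the replicate block, and 1 to 16 with 1 library left out. For HA-NRG1 type III/+ against WT the 8 genes became 0 with no filter, 265 with the replicate block and 1 to 10 with 1 library left out. For HA-NRG1 type III/+:Q215X/+ against Q215X/+ the 5 became 3, 216, 9 with the sex term, 11 with that term and the block, and 2 to 18. For HA-NRG1 type III/+:Q215X/+ against WT the 14 became 299 with the block, 98 with the sex term and the block, and 5 to 17. For HA-NRG1 type III/+:Q215X/+ against HA-NRG1 type III/+ the 0 became 6 with the sex term, 5 with that term and the block, and 0 to 7, and for the interaction the 1 became 9, 9 and 3 to 11.

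With the sex term the median of the 10 genes was −0.065 in Q215X/+ against WT, 0.10 in HA-NRG1 type III/+ against WT and −0.011 for the interaction. Leaving out 1 library gave medians of −0.33 to −0.16 in Q215X/+ against WT and −0.012 to 0.10 in HA-NRG1 type III/+ against WT. The sex term turned the sign in Q215X/+ against WT of Pecam1 (0.026), Cldn5 (0.22), Ocln (0.096), Abcb1a (0.069), Lsr (0.044), Slc2a1 (0.034) and Apcdd1 (0.049), and in HA-NRG1 type III/+:Q215X/+ against Q215X/+ of Pecam1 (−0.054), Cldn5 (−0.22), Abcb1a (−0.071) and Apcdd1 (−0.13). The sex term with the replicate block turned it for Cdh5 (0.028), Ocln (0.21), Slc2a1 (0.013) and Apcdd1 (0.14) in the first and for Slco2b1 (−0.046) and Apcdd1 (−0.22) in the second. Leaving out 1 Q215X/+ library turned Pecam1, Tek and Ocln against WT (ranges −0.47 to 0.063, −0.34 to 0.039 and −0.26 to 0.055) and Pecam1 in HA-NRG1 type III/+:Q215X/+ against Q215X/+ (−0.091 to 0.44). Leaving out 1 library also turned Eng in HA-NRG1 type III/+ against WT (−0.14 to 0.0026) and in HA-NRG1 type III/+:Q215X/+ against WT (−0.31 to 0.052). The replicate block changed no other call among the named genes than those given for Kdr, Jam2, Mfsd2a, Ndp, Alas2, Hbb-b2, Lyve1, Mmrn1 and Cx3cr1. Mmrn1 gave no value without set 1 of Q215X/+ or of HA-NRG1 type III/+:Q215X/+, where its mean was under 1 FPKM.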
